A study of Mus musculus with 6 samples.

Results

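The genes described here are 10 genes of the calcineurin pathway: the catalytic subunits of calcineurin (*Ppp3ca*, *Ppp3cb*), the regulators of calcineurin (*Rcan1*, *Rcan2*), the NFAT transcription factors (*Nfatc1*, *Nfatc2*, *Nfatc3*, *Nfatc4*) and the calsarcins (*Myoz1*, *Myoz2*). They were chosen by gene symbol, and each of the 10 matched 1 of the 37979 genes in the table. The table holds RNA-seq of the hindlimb gastrocnemius (GAS) muscle from untreated male mice, 20 weeks of age, with 3 WT and 3 Kvβ2 KO mice and 1 library per mouse. Both genotypes came from crosses between Kvβ2+/- mice, and the KO mice were Kvβ2-/-, without a functional *Kcnab2* gene, which encodes the β2 subunit of voltage-gated potassium channels. The libraries are named by genotype and by the numbers 1, 7 and 8 of the labels. Levels are FPKM, the fragments of a gene divided by its transcript length and by the size of its library, a scale per length on which genes can be set side by side.

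Calcineurin is a phosphatase made of a catalytic A subunit and a calcium-binding B subunit, and it is switched on by calcium and calmodulin. It removes phosphates from NFAT factors, which then enter the nucleus, while kinases such as GSK3, DYRK and CK1 return them to the cytoplasm. RCAN proteins bind calcineurin and can inhibit it, and *Rcan1* is itself a well-known NFAT target. Calsarcins hold calcineurin at the Z-disc of the sarcomere through α-actinin, with *Myoz1* in fast fibers and *Myoz2* in slow fibers and heart. In skeletal muscle this pathway is best known for favoring the genes of slow, oxidative fibers.

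Several features of the libraries touch these genes. *Kcnab2* was at 0.233, 0.10 and 0.110 FPKM in WT 1, 7 and 8, was listed at 0 in KO 1 and KO 8 and was at 0.0151 FPKM in KO 7. The 6 skeletal muscle markers summed to 11857 to 19084 FPKM in WT and 23949 to 26988 FPKM in KO libraries, sums carried mostly by *Ckm* and *Acta1*, which were higher in each KO library. Of the same list, *Des* was also higher in each KO library, at 440 to 646 FPKM in WT and 836 to 948 FPKM in KO libraries. *Neb* (log2 fold change -0.10) and *Mb* overlapped between the genotypes. *Ttn* was listed at 0 in the 3 WT libraries and was at 151 to 190 FPKM in the KO libraries. By the steps of low FPKM values, the KO libraries held about 13920000 to 18150000 fragments and the WT libraries about 19230000 to 20140000. WT 8 stood apart by its slow fiber genes, with the slow myosin *Myh7* at 0.0514 FPKM against 15.2 to 77.4 FPKM in the other libraries. KO 7 had the highest summed level of 5 adipocyte markers, 83.4 FPKM, against 18.4 and 20.8 FPKM in the other KO libraries and 3.84 to 17.4 FPKM in the WT libraries. The sums of endothelial, smooth muscle, fibroblast and satellite cell markers overlapped between the genotypes, and 0 of these markers were called by limma. At an unadjusted p under 0.05 were 3 of 5 tested smooth muscle markers (*Acta2*, *Myh11* and *Tagln*, with each KO library above each WT library), 2 of 6 endothelial markers (*Tie1* higher, *Kdr* lower) and 1 of 6 fibroblast markers (*Col1a1*, higher). Of the other tested smooth muscle markers, *Pdgfrb* also had each KO library above each WT library. *Rgs5*, the largest part of the smooth muscle sum, went the other way without overlap. It was at 44.9 to 70.4 FPKM in WT and 39.0 to 44.8 FPKM in KO libraries (log2 fold change -0.33). The difference between genotypes also followed the GC content of a gene, with a median log2 difference of -0.30 for the 2609 tested genes under 45% GC and of 0.47 for the 2701 genes of 55% GC or more. For this reason the differences of the 10 genes and of their ratios are also given after each library was corrected for GC content. *Ckm* (56.2% GC) had a log2 fold change of 0.81, and of 0.46 after this correction (limma adjusted p = 0.545). For *Acta1* (57.4% GC) the values were 0.83 and 0.39 (limma adjusted p = 0.50 after the correction). Among all tested genes, 18.3% had each KO library above each WT library. Whether the KO libraries held more muscle RNA was not tested.

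All 10 genes passed the filter of a mean of at least 0.5 FPKM, and 0 of them were called at an adjusted p under 0.05 (limma on log2(FPKM + 0.1), Benjamini-Hochberg over 12334 genes). Of all tested genes, 0.324% were called. At an unadjusted p under 0.05, *Rcan1* and *Nfatc2* were higher and *Ppp3cb* and *Nfatc3* were lower in the KO mice, which is 2 of 10 genes in each direction, against 15.3% higher and 10.9% lower among all tested genes. The genotypes did not overlap for *Nfatc2*, with KO above WT, and for *Ppp3cb* and *Nfatc3*, with KO below WT. Such a separation was found for 18.3% of all tested genes with KO above and for 16.2% with KO below. The median log2 fold change was 0.052 over the 10 genes and 0.010 over all tested genes, with 5 of the 10 higher and 5 lower, from -0.45 for *Ppp3cb* to 1.09 for *Myoz2*. A fold change is KO minus WT on the log2(FPKM + 0.1) scale, which understates the difference of genes with low FPKM. With 3 libraries per genotype, a permutation test of a single value cannot give a p under 0.1.

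**Figure D1:**
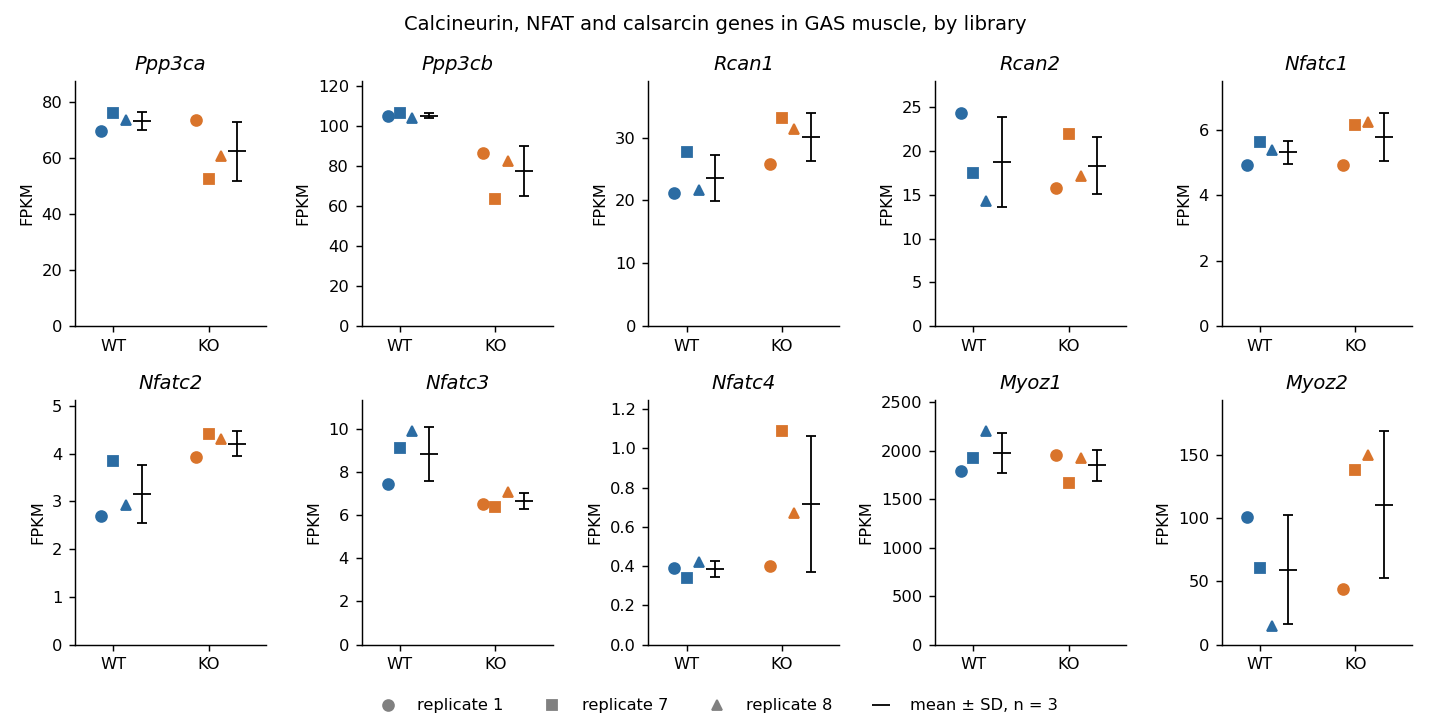
Level in FPKM (vertical axes, from 0) of each of the 10 genes in WT and KO libraries, with 1 point per library, the symbol giving the replicate number, and bars for mean ± SD (n = 3). *Ppp3cb*, *Nfatc2* and *Nfatc3* separate the genotypes, *Myoz2* spreads from 14.9 to 149.5 FPKM, and *Nfatc4* stands out in KO 7 at 1.09 FPKM.

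The catalytic subunits were both well expressed, with *Ppp3cb* above *Ppp3ca* in every library. *Ppp3cb*, which encodes the β isoform of calcineurin A (ENSMUSG00000021816, chromosome 14, from 20499364 to 20546573 on GRCm38), was at 105, 107 and 104 FPKM in WT 1, 7 and 8. In KO 1, 7 and 8 it was at 86.7, 63.5 and 82.8 FPKM. The WT libraries were within 3 FPKM of each other, every KO library lay under them, and KO 7 was the lowest. The WT mean was 105 ± 1.18 FPKM and the KO mean 77.7 ± 12.4 FPKM (SD, n = 3 each), a log2 fold change of -0.45 (95% confidence interval -0.77 to -0.14, limma adjusted p = 0.106). The GC content of its transcripts is 39.5%, the lowest of the 10 genes, and after the correction for GC content the log2 fold change was -0.019 (95% confidence interval -0.29 to 0.25).

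*Ppp3ca*, which encodes the α isoform of the same subunit (ENSMUSG00000028161, chromosome 3, from 136670124 to 136937727), was at 69.7, 76.2 and 73.9 FPKM in WT 1, 7 and 8. It was at 73.8, 52.7 and 60.9 FPKM in KO 1, 7 and 8. KO 7 and KO 8 lay under all WT libraries, while KO 1 lay among them, so the genotypes overlapped. Its log2 fold change was -0.24 (95% confidence interval -0.57 to 0.081, limma adjusted p = 0.298) and 0.045 after the correction for GC content. It was -0.13 without KO 7 and -0.37 without KO 1. The log2 ratio of *Ppp3cb* to *Ppp3ca* within a library does not move with the scaling of that library. It was 0.59, 0.48 and 0.50 in WT 1, 7 and 8 and 0.23, 0.27 and 0.44 in KO 1, 7 and 8, so *Ppp3cb* exceeded *Ppp3ca* by less in each KO library than in any WT library. The difference of -0.21 had p = 0.1 (exact permutation test, two-sided, the smallest p possible, and 0.167 when adjusted over 5 such ratios), and it was -0.065 with values corrected for GC content.

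The partners of these subunits were looked at through a list of 30 other genes of the pathway. *Ppp3r1*, which encodes the widely expressed B subunit and was picked from the list after its values were seen, was at 71.2, 79.6 and 79.6 FPKM in WT 1, 7 and 8. It was at 64.3, 43.8 and 53.7 FPKM in KO 1, 7 and 8, under every WT library, with a log2 fold change of -0.53 (limma adjusted p = 0.101) and of -0.13 after the correction for GC content. *Calm2*, one of 3 calmodulin genes, was at 209 to 234.5 FPKM in WT and at 118 to 179 FPKM in KO libraries, a log2 fold change of -0.57 (limma adjusted p = 0.0962) and of -0.24 after the correction. The other catalytic isoform, *Ppp3cc*, also picked after its values were seen, was at 13.2 to 13.9 FPKM in WT libraries and at 11.1 to 13.0 FPKM in KO libraries, and the testis isoform of the B subunit, *Ppp3r2*, was listed at 0 in each library. *Ppp3ca*, *Ppp3cb*, *Ppp3cc* and *Ppp3r1* thus had log2 fold changes under 0, and their transcripts hold 39.5% to 47.2% GC. Under 45% GC 89.4% of tested genes had a log2 fold change under 0, and from 45% to 50% GC 69.0% did.

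Of the regulators of calcineurin, *Rcan1* had the larger difference between the genotypes, and that of *Rcan2* was close to 0. *Rcan1* (ENSMUSG00000022951, chromosome 16, from 92391953 to 92470867) was at 21.1, 27.7 and 21.7 FPKM in WT 1, 7 and 8 and at 25.8, 33.1 and 31.3 FPKM in KO 1, 7 and 8. Of the 9 pairs of a KO and a WT library, the KO library was higher in 8, and the exception was KO 1 against WT 7. The WT mean was 23.5 ± 3.67 FPKM and the KO mean 30.1 ± 3.84 FPKM (SD, n = 3 each), a log2 fold change of 0.36 (95% confidence interval 0.0020 to 0.71, limma adjusted p = 0.189). At 52.9% GC, *Rcan1* had a log2 fold change of 0.23 after the correction for GC content (95% confidence interval -0.10 to 0.57). *Rcan2* (ENSMUSG00000039601, chromosome 17, from 43801351 to 44039516) was at 24.4, 17.5 and 14.3 FPKM in WT and at 15.8, 22.0 and 17.2 FPKM in KO 1, 7 and 8. The WT libraries held both the highest and the lowest value, and the log2 fold change was -0.0083 (95% confidence interval -0.51 to 0.49, limma adjusted p = 0.985), and 0.14 after the correction for GC content. The log2 ratio of *Rcan2* to *Rcan1* was 0.20 in WT 1 and between -0.86 and -0.59 in the other libraries, a difference of -0.36 between the genotypes (exact permutation test, two-sided, p = 0.3). It was -0.086 without WT 1 and -0.099 with values corrected for GC content.

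*Rcan1* is read from a pair of promoters that the FPKM of the gene does not separate, and the downstream one is known for its NFAT response. The 250 bases upstream of each start are shown because a value of *Rcan1* sums the transcripts of both. They come from RefSeq on GRCm38.p6, read on the minus strand, 5′ to 3′, with the NFAT core GGAAA or its reverse complement TTTCC in capitals.
Rcan1 upstream promoter, chr16:92466170-92466419: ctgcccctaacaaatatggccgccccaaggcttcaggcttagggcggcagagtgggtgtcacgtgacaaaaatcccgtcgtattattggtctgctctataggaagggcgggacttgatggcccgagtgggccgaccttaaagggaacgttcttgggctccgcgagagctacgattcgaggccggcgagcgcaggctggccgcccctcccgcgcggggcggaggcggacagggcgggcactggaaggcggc
Rcan1 downstream promoter, chr16:92400079-92400328: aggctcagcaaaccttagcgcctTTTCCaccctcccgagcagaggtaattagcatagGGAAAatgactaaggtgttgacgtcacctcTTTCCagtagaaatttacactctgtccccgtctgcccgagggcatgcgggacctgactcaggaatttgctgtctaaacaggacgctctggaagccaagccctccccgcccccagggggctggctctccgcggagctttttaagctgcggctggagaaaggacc
The core was found 0 times in the upstream and 3 times in the downstream window. Among the 32851 promoters of the RefSeq table, 55.6% held the core at least 1 time in the same window and 6.39% at least 3 times, and such a match is a run of letters, not a measured site. Promoters were in the table for 7 of the 10 genes.

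The NFAT factors were expressed at a lower level than the enzyme, in the order of means *Nfatc3*, *Nfatc1*, *Nfatc2* and *Nfatc4* in both genotypes. *Nfatc3* (ENSMUSG00000031902, chromosome 8, from 106058840 to 106130537) was at 7.47, 9.15 and 9.90 FPKM in WT 1, 7 and 8 and at 6.53, 6.41 and 7.09 FPKM in KO 1, 7 and 8. Each KO value was under each WT value, with WT 1 close to KO 8. The log2 fold change was -0.39 (95% confidence interval -0.71 to -0.074, limma adjusted p = 0.137). Its GC content is 44.2%, and after the correction the log2 fold change was -0.075 (95% confidence interval -0.45 to 0.30).

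*Nfatc2* (ENSMUSG00000027544, chromosome 2, from 168476410 to 168601657), known from T cells and from the growth of myotubes, went the other way. It was at 2.68, 3.85 and 2.92 FPKM in WT 1, 7 and 8 and at 3.92, 4.40 and 4.30 FPKM in KO 1, 7 and 8. The KO libraries lay above the WT libraries, though WT 7 and KO 1 differed by less than 0.1 FPKM. The log2 fold change was 0.42 (95% confidence interval 0.043 to 0.80, limma adjusted p = 0.160). At 56.4% GC, it was 0.060 after the correction (95% confidence interval -0.29 to 0.41). The leukocyte marker *Ptprc*, picked from its list after its values were seen, was at 0.316 to 0.489 FPKM in the 6 libraries. The leukocyte markers with a value summed to 2.78 to 8.35 FPKM in WT and 5.501 to 11.8 FPKM in KO libraries. *Adgre1*, also on that list of 8, had no value here. With limma, 4 markers were tested and 0 were called (0 also at an unadjusted p under 0.05). The log2 fold changes of these 4 were 1.135 for *Cd68*, 0.47 for *Csf1r*, 0.30 for *Itgam* and -0.29 for *Cd3e*. *Cd68* spread from 0.3135 FPKM in WT 1 to 3.56 FPKM in KO 7. The part of leukocytes in *Nfatc2* was not tested. In whole muscle, fewer cells of a type and less RNA per cell cannot be told apart.

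*Nfatc1* (ENSMUSG00000033016, chromosome 18, from 80606205 to 80713071), the factor tied to slow fiber activity, was at 4.94, 5.63 and 5.39 FPKM in WT 1, 7 and 8 and at 4.93, 6.16 and 6.26 FPKM in KO 1, 7 and 8. KO 1 had the lowest value of the 6 libraries and KO 8 the highest. The log2 fold change was 0.11 (95% confidence interval -0.20 to 0.43, limma adjusted p = 0.622), with a value of -0.10 after the correction for GC content and of 0.053 to 0.22 with 1 library left out. The log2 ratio of *Nfatc1* to *Nfatc3* was -0.59, -0.69 and -0.87 in WT 1, 7 and 8 and -0.40, -0.056 and -0.18 in KO 1, 7 and 8, so *Nfatc1* was nearer to *Nfatc3* in each KO library (difference 0.50, exact permutation test, two-sided, p = 0.1). These genes differ in GC content, 54.1% against 44.2%, and with corrected values the difference of the ratio was -0.029.

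*Nfatc4* (ENSMUSG00000023411, chromosome 14, from 55823144 to 55833943) was the least expressed of the 10 genes. It was at 0.390, 0.340 and 0.420 FPKM in WT 1, 7 and 8 and at 0.398, 1.09 and 0.670 FPKM in KO 1, 7 and 8. KO 7 and KO 8 lay above all WT libraries, and KO 1 lay among them. On an annotated transcript of median length these values rest on about 10.6 fragments in KO 1 and 37.7 in KO 7. The log2 fold change was 0.67 (95% confidence interval -0.27 to 1.62, limma adjusted p = 0.323), and 0.36 without KO 7. KO 7 was also the library with the most adipocyte marker RNA, with *Adipoq* at 40.4 FPKM against 2.39 to 11.4 FPKM elsewhere, and with the highest sum of 5 Schwann cell markers, 85.6 FPKM against 12.9 to 61.4 FPKM. The next highest Schwann cell sum, 61.4 FPKM, was in WT 7, where *Nfatc4* was lowest, and KO 8 had a sum of 30.4 FPKM. Of the adipocyte markers, 5 were tested with limma, 0 were called and 4 had an unadjusted p under 0.05, all higher in KO (15.3% of all tested genes were). *Plin1*, *Cidec* and *Retn* had each KO library above each WT library, as 18.3% of all tested genes did. Without KO 7 their log2 fold changes were 1.96, 1.50 and 1.43 (limma adjusted p of 0.214, 0.288 and 0.217). Of the Schwann cell markers 4 were tested and 0 had an unadjusted p under 0.05. The part of these cells in *Nfatc4* was not tested. After the correction for GC content, at 57.3% GC, the log2 fold change was 0.25. The log2 ratio of *Nfatc4* to *Nfatc3* was -3.95, -4.40 and -4.27 in WT 1, 7 and 8 and -3.73, -2.46 and -3.22 in KO 1, 7 and 8, a difference of 1.07 (exact permutation test, two-sided, p = 0.1) that was 0.32 with corrected values.

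**Figure D2:**
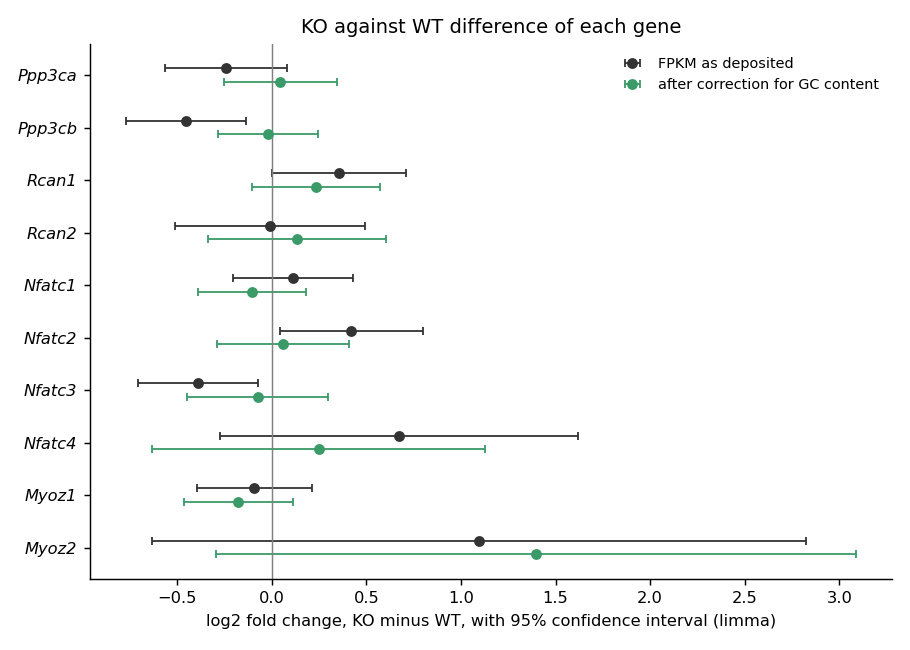
Log2 fold change of KO minus WT (horizontal axis) for each gene with its 95% confidence interval from limma, for FPKM as deposited (dark) and after correction for GC content (green). The intervals of *Ppp3cb*, *Nfatc3*, *Nfatc2* and *Rcan1* leave out 0 for FPKM as deposited, and all 10 intervals hold 0 after the correction.

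**Figure D3:**
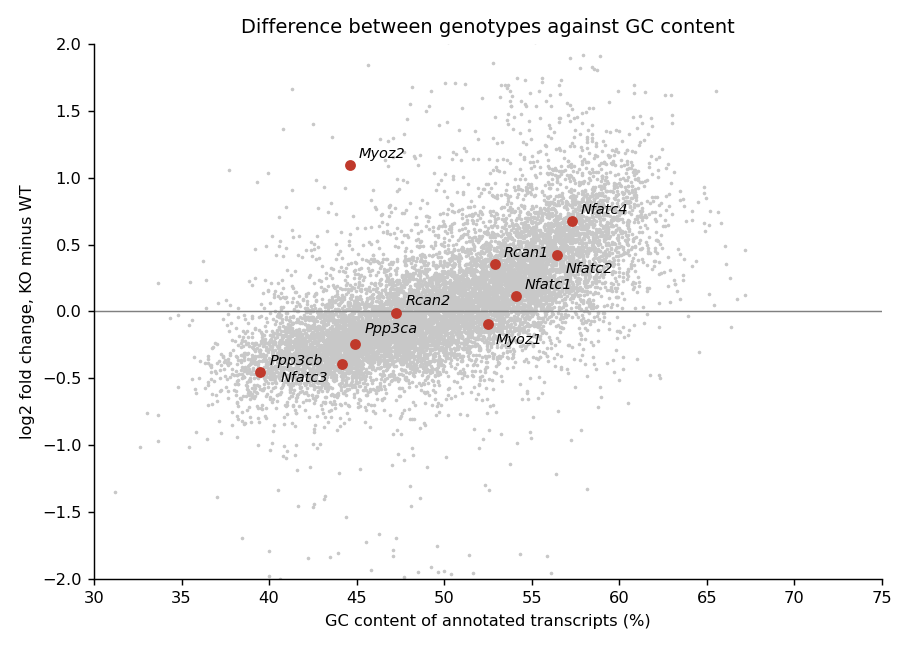
Log2 fold change of KO minus WT (vertical axis) against the GC content of a gene's annotated transcripts in percent (horizontal axis), with tested genes in gray and the 10 genes in red. The axes leave out 147 of 11985 genes, and *Ppp3cb* at 39.5% GC and *Nfatc4* at 57.3% GC lie at the ends of the range of the 10 genes, while *Myoz2* at 44.6% GC has a log2 fold change of 1.09 where the median of the genes under 45% GC is -0.30.

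The calsarcins were the most and the least steady of the 10 genes. *Myoz1* (ENSMUSG00000068697, chromosome 14, from 20649107 to 20656540), the calsarcin of fast fibers, was at 1794, 1924 and 2197 FPKM in WT 1, 7 and 8 and at 1950, 1667 and 1925 FPKM in KO 1, 7 and 8. It was the most abundant of the 10 genes, at more than 10 times the level of *Myoz2* in every library. Its SD over the 6 libraries was 0.13 on the log2 scale, and 10.3% of tested genes had a smaller one. The log2 fold change was -0.093 (95% confidence interval -0.40 to 0.21, limma adjusted p = 0.675), and -0.18 after the correction for GC content. With 1 library left out it was -0.16 to -0.012.

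*Myoz2* (ENSMUSG00000028116, chromosome 3, from 123006206 to 123035015), the calsarcin of slow fibers, was at 101, 60.8 and 14.9 FPKM in WT 1, 7 and 8 and at 43.7, 138 and 149.5 FPKM in KO 1, 7 and 8. WT 8 was the lowest and KO 8 the highest, and KO 1 lay between WT 8 and WT 7. Its SD over the 6 libraries was 1.25 on the log2 scale, and 97.4% of tested genes had a smaller one. The values differed by 6.76 times within the WT libraries, while the means of the genotypes, 58.9 ± 43.1 and 110.3 ± 57.97 FPKM (SD, n = 3), differed by 1.87 times. The log2 fold change was 1.09 (95% confidence interval -0.63 to 2.82, limma adjusted p = 0.376). It was 0.30 without WT 8, 1.67 without WT 1 and 1.67 without KO 1, and 1.40 after the correction for GC content (adjusted p = 0.513). The genotypes overlapped. Its log2 ratio to *Myoz1* was -4.15, -4.98 and -7.19 in WT 1, 7 and 8 and -5.48, -3.60 and -3.69 in KO 1, 7 and 8 (difference 1.19, exact permutation test, two-sided, p = 0.4). That difference was 1.57 with values corrected for GC content and 0.31 without WT 8.

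*Myoz2* ordered the libraries as 7 of 15 slow fiber genes did. From the lowest to the highest, the order was WT 8, KO 1, WT 7, WT 1, KO 7 and KO 8. Of the 15 genes of a slow fiber list, 7 had exactly this order: the slow myosin *Myh7*, the light chains *Myl2* and *Myl3*, the troponins *Tnni1*, *Tnnc1* and *Tnnt1*, and the slow calcium pump *Atp2a2*. Over the whole table, 20 of the 12333 other tested genes (0.162%) had it, with these 7 among them. Among the rest of the list, *Casq2* and *Pln* were lowest in KO 1, *Casq2* and *Sln* were highest in WT 1, and *Ppargc1a* was highest in WT 8. The order was compared after the values were seen. *Tnni1* was at 0.378 FPKM in WT 8, 18.9 FPKM in KO 1, 30.6 FPKM in WT 7, 34.4 FPKM in WT 1, 73.3 FPKM in KO 7 and 119 FPKM in KO 8. *Myh7* was at 0.0514, 15.2, 22.1, 24.3, 50.5 and 77.4 FPKM in the same libraries. *Myoz2* varied by 10.01 times over the 6 libraries, about as much as *Atp2a2* (10.5 times), and the other 6 of the 7 genes with its order varied by 23.6 times (*Myl3*) to 1508 times (*Myh7*). In WT 8 it was the lowest as well, but it was still at 14.9 FPKM where *Myh7* was near 0.

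**Figure D4:**
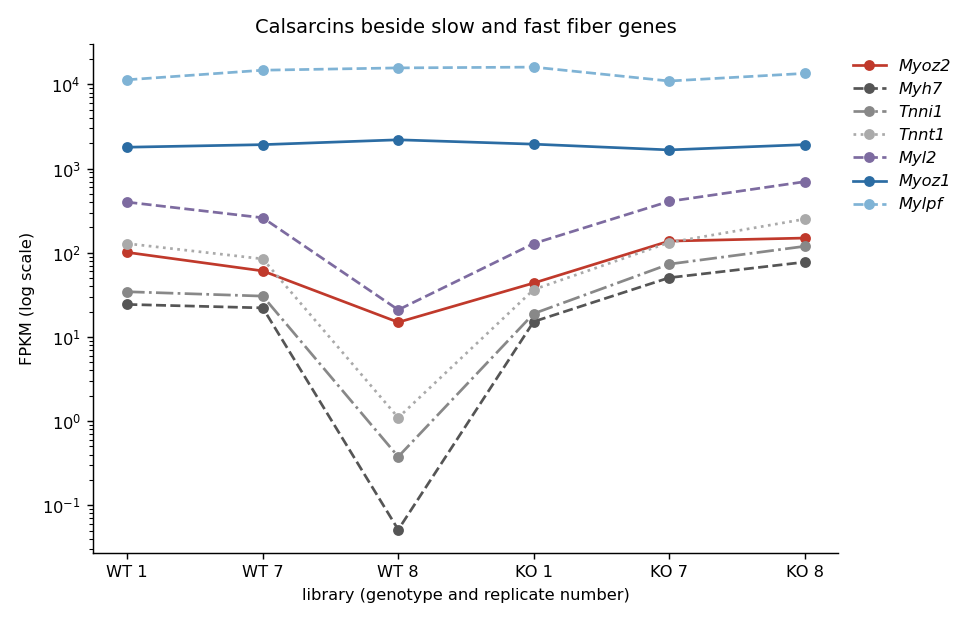
FPKM on a log scale (vertical axis) of the calsarcins *Myoz2* and *Myoz1*, of the slow fiber genes *Myh7*, *Tnni1*, *Tnnt1* and *Myl2* and of the fast light chain *Mylpf* in each library (horizontal axis), with lines that only join the values of a gene. *Myoz2* and the slow fiber genes drawn are lowest in WT 8 and highest in KO 8, while *Myoz1* stays between 1667 and 2197 FPKM. The slow fiber genes drawn are all among the 7 of 15 that share the order of *Myoz2*.

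When *Myoz2* was set against the slow fiber list within each library, the difference between the genotypes was small. Its log2 level minus the mean log2 level of the 15 genes was 1.22, 0.96 and 1.66 in WT 1, 7 and 8 and 1.02, 1.34 and 1.16 in KO 1, 7 and 8. The difference was -0.11 (exact permutation test, two-sided, p = 0.8), a comparison added after the values were seen. Of the 15 slow fiber genes, 11 were lowest in WT 8 and 9 were highest in KO 8. All 15 were tested and 0 were called by limma, with 1 at an unadjusted p under 0.05. That gene was *Myh2*, the myosin of fast oxidative fibers, at 178, 179 and 274 FPKM in WT and 304, 419 and 329 FPKM in KO 1, 7 and 8, with KO above WT in every library (log2 fold change 0.75, limma adjusted p = 0.0932, and 0.66 after the correction for GC content). The next by p were *Myl3*, *Tnni1* and *Mb*, with log2 fold changes of 1.63, 2.79 and 0.91 (limma adjusted p of 0.284, 0.301 and 0.304), and of 0.64, 0.76 and 0.46 without WT 8. *Mb*, the oxygen store myoglobin, was at 543 to 1825 FPKM in WT libraries and at 997 to 3150 FPKM in KO libraries. *Ppargc1a*, a coactivator of oxidative genes picked after its values were seen, stayed between 5.57 and 6.64 FPKM.

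The fast fiber list held 13 genes, of which 10 were tested and 1 was called. The called gene was *Tpm1*, which was listed at 0 in the 3 WT libraries and was at 14651 to 19415 FPKM in the KO libraries. *Ttn*, of the skeletal muscle markers, was likewise listed at 0 in the WT libraries, was at 151 to 190 FPKM in the KO libraries and was called. Whether these listings at 0 stand for absent RNA or for missing values was not tested, so the call of *Tpm1* is not read as a difference between the genotypes. *Myh4*, *Tnnt3* and *Atp2a1* were listed at 0 in every library, so the main fast myosin could not be compared. Of the others, *Myl1*, *Tnni2* and *Actn3* had the lowest unadjusted p, with log2 fold changes of -0.31, 0.24 and 0.26 (limma adjusted p of 0.380, 0.380 and 0.466). After the correction for GC content these were -0.18, -0.085 and -0.15.

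The other inhibitors and anchors of calcineurin completed the pathway. Of the 30 other pathway genes, 27 were tested and 0 were called by limma. At an unadjusted p under 0.05, KO values were higher for 5 and lower for 4 of them, against 15.3% higher and 10.9% lower among all tested genes. *Cabin1*, an inhibitor of calcineurin, had the lowest p of them. It was at 1.19, 1.33 and 1.38 FPKM in WT 1, 7 and 8 and at 2.27, 3.04 and 2.46 FPKM in KO 1, 7 and 8, with every KO library above every WT library. Its log2 fold change was 0.94 (95% confidence interval 0.53 to 1.34, limma adjusted p = 0.0667) and 0.71 after the correction for GC content (adjusted p = 0.251). *Myoz3*, the third calsarcin, picked after its values were seen, was at 18.2, 31.3 and 41.5 FPKM in WT and at 52.7, 48.7 and 44.5 FPKM in KO 1, 7 and 8, a log2 fold change of 0.76 (limma adjusted p = 0.149) and of 0.77 after the correction. The genotypes overlapped for *Myoz1* and *Myoz2* but not for *Myoz3*, where WT 8 was less than 3 FPKM under KO 8. Of all tested genes, 18.3% had each KO library above each WT library. With 1 library left out, the log2 fold change of *Myoz3* was 0.43 to 1.02.

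Of the 11 kinases listed for the return of NFAT to the cytoplasm, 0 were called by limma. At an unadjusted p under 0.05, 3 were higher (*Dyrk1b*, *Csnk1e* and *Gsk3a*) and 1 was lower (*Csnk1a1*) in KO libraries. Among all tested genes, 15.3% were higher and 10.9% were lower at that threshold. *Dyrk1b* was at 5.23 to 8.03 FPKM in WT and at 9.97 to 11.8 FPKM in KO libraries, a log2 fold change of 0.76 (limma adjusted p = 0.0750) and of 0.15 after the correction for GC content. *Csnk1e*, which encodes the ε isoform of CK1, was at 11.3 to 16.95 FPKM in WT and at 20.4 to 27.8 FPKM in KO libraries, a log2 fold change of 0.76 (limma adjusted p = 0.0837) and of 0.43 after the correction. *Csnk1a1*, which encodes the α isoform, was at 72.4 to 85.9 FPKM in WT and at 57.7 to 69.7 FPKM in KO libraries, a log2 fold change of -0.29 (limma adjusted p = 0.173) and of -0.025 after the correction. *Gsk3a* was at 19.6 to 23.5 FPKM in WT and at 26.7 to 28.2 FPKM in KO libraries, a log2 fold change of 0.32 (limma adjusted p = 0.134) and of -0.21 after the correction. *Csnk1a1* and *Gsk3a* were picked after their values were seen. The median log2 fold change of the other pathway genes was -0.11, and 0.012 after the correction, against 0.010 and 0.055 over all tested genes.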

How the data were processed

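Total RNA of the GAS muscles was made into stranded mRNA libraries, 1 per mouse. The authors used TopHat for mapping to GRCm38 and Cufflinks for quantification, and the deposited values are FPKM, not counts. Versions, the annotation release and the use of strand in counting are not given in the sources used here, nor is a batch or date of the libraries.

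KO was compared with WT on log2(FPKM + 0.1) by limma 3.58.1 (R 4.3.3) with a variance trend. The filter kept 12334 genes whose mean over the 6 libraries reached 0.5 FPKM, and p-values were adjusted by Benjamini-Hochberg over all of them. The call threshold was an adjusted p under 0.05. Ratios of a pair of genes used exact permutation tests, two-sided. Coordinates and GC content came from GENCODE vM21, in which 32916 gene identifiers were found. For the GC correction, a loess curve (span 0.3) of a library's log2 differences from the mean library against GC content was subtracted. Fragments per library were estimated from the low FPKM of genes with 1 annotated transcript of 1500 to 6000 bases, where 89.7% to 93.8% of values fell within 0.15 of a whole fragment. The main fit was run on simulated data in which 200 of 12092 genes were changed 4-fold, and 181 of these were recovered, with 13 false calls. Smaller changes, a trend with GC content and genes listed at 0 were not simulated, so the recovery of smaller differences is not known. Annotated genes that overlap the 10 genes and are in the table reached at most 1.80 FPKM.

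The genes and lists were chosen with earlier results of these data known. The text names the 10 genes, *Kcnab2*, and of each other list the called genes and up to 4 with the lowest p, genes listed at 0 or marking cell types where a result touches them, and others as picked after their values were seen. Alternatives covered the pseudocount, the filter, genes listed at 0, scaling, the variance trend, array weights, a replicate block, GC content and each library left out. Figures used matplotlib 3.10.9 in Python 3.11.15.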

Additional observations from a re-analysis of the deposited data

How the results depend on the processing

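Of the 10 genes, 0 were called by limma in 19 of 20 alternatives, and 2 were called with array weights, *Ppp3cb* (log2 fold change -0.40, adjusted p = 0.0186) and *Nfatc3* (-0.41, adjusted p = 0.0191). Those weights called 3147 genes in all, 12 of the other pathway genes and 1 slow fiber gene. *Tpm1* was no longer tested when genes listed at 0 were left out, which left 0 fast fiber genes and 1 gene in all. The count over all genes, 40 as reported, was 11 with a pseudocount of 1, 22 with a filter at 0.1 FPKM, 20 without a filter, 19 with upper quartile scaling, 19 without the variance trend, 13 with the replicate block, 13 with the GC correction with or without that block, and 11 to 38 with 1 library left out.

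For each gene, the mean of the genotype was subtracted from its log2 values. These deviations correlated at -0.080 to 0.034 between same-numbered KO and WT libraries, so the numbers were not taken as pairs. The replicate block changed no call among the 10 genes. The GC correction turned *Ppp3ca* to 0.045, *Rcan2* to 0.14, *Nfatc1* to -0.10 and the ratio of *Nfatc1* to *Nfatc3* to -0.029. With the GC correction and without WT 8, an alternative added after seeing the data, 24 genes were called, and *Ppp3ca* was 0.097, *Ppp3cb* 0.017, *Nfatc1* -0.13, *Nfatc2* -0.029 and *Nfatc3* 0.053. *Rcan2* was 0.011 with array weights and -0.18 to 0.20 with 1 library left out. *Rcan1*, *Nfatc4*, *Myoz1* and *Myoz2* kept their sign in every alternative in which they were tested. *Nfatc4* was not tested with a filter at 1 FPKM. The cause of these shifts was not tested. At 3 libraries per genotype and these depths, *Nfatc4* rests on few fragments.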
